A study of Mus musculus with 6 samples.

Results

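Genes of the machinery that moves newborn cortical neurons were followed from progenitors to neurons, 9 in all: the Rnd GTPase genes Rnd1, Rnd2 and Rnd3, the kinase gene Cdk5 with its activator genes Cdk5r1 and Cdk5r2, the dynein regulator genes Pafah1b1 and Ndel1, and the actin crosslinker gene Flna. They were chosen by symbol, as the probe sets annotated to a member gene alone, and all 9 were found among the 19938 genes measured, each with 1 probe set. Sorted mouse brain cells of strain C57BL/6J were compared, 3 samples of GFP+ cortical neural progenitors against 3 samples of RFP+ differentiated neuronal progeny, each on 1 Affymetrix whole-transcript array. Both populations came from the brain in vivo and carried fluorescent reporters, with no other treatment than the sort. The promoters behind the reporters, the age of the animals and whether a sample pooled animals are not known here. The cortex is named for the GFP+ cells only, so region and cell type cannot be told apart.

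A newborn cortical neuron leaves the ventricular surface, passes a multipolar phase and then climbs along radial glia. It extends a leading process, and microtubule motors draw the nucleus after it. Rnd proteins are atypical small GTPases that stay bound to GTP and restrain RhoA signalling. Cdk5 is a kinase of postmitotic neurons that works only with an activator, p35 (Cdk5r1) or p39 (Cdk5r2). Lis1, the product of Pafah1b1, acts with Ndel1 on dynein, and Ndel1 is a substrate of Cdk5. Loss of LIS1 causes lissencephaly in people, and loss of filamin A leaves neurons at the ventricle.

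The markers of the sorted cells went with the labels, in lists chosen with earlier results of these data known. All 11 progenitor markers were higher in GFP+ arrays and all 11 neuron markers higher in RFP+ arrays. Neuron markers were not absent from the progenitors, with summed intensities of 21751 to 23554 on GFP+ arrays against 54426 to 57446 on RFP+ arrays. The progenitor markers summed to 14046 to 16112 on RFP+ arrays against 58511 to 58677. Array medians lay between 210.31 and 221.1. Olfactory receptor genes, silent in most brain cells, served as a guide to background: 95% of them read below 201.5 to 224.1, depending on the array. Since RNA was measured in bulk, fewer expressing cells and less RNA per cell cannot be told apart for any gene.

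RefSeq promoter windows (GRCm38.p6) were held for 5 of the 9 genes, and 3 of them could be read at the gene's outermost annotated start. These 3 are shown for that reason and were not chosen by direction. Of the directions found below, Rnd3 was higher in progenitors, Cdk5r2 and Ndel1 in neurons. Each is the 200 bases before the start, written 5′ to 3′ on the gene's strand. Capitals mark an E-box (CANNTG), the general letters of bHLH factor sites, not of neurogenic factors alone. Rnd3 lies on the minus strand (chr2:51149112-51149311), Cdk5r2 on the plus strand (chr1:74854829-74855028) and Ndel1 on the minus strand (chr11:68853147-68853346).
Rnd3: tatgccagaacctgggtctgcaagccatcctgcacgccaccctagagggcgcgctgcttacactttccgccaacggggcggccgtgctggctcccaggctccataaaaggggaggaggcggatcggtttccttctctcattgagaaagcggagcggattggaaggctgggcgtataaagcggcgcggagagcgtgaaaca
Cdk5r2: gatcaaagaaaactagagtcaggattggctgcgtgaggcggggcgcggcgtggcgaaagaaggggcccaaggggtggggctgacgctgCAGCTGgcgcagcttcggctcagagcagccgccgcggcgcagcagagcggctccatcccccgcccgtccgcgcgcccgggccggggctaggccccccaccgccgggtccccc
Ndel1: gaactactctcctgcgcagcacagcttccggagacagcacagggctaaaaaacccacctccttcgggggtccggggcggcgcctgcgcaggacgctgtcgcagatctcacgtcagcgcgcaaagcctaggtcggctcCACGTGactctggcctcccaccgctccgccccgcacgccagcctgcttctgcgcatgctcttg
The Cdk5r2 window held 1 E-box, CAGCTG, beginning 112 bases before the start. The Ndel1 window held 1, CACGTG, beginning 63 bases before it, and these letters did not occur in the Rnd3 window. Over all 32851 windows of this length, 58.2% held at least 1 E-box on either strand. A GC box (GGGCGG on either strand), the core of Sp1 sites, occurred once each for Rnd3 and Cdk5r2 and 2 times for Ndel1, without overlapping an E-box, and in 31.0% of all windows. Matches describe the letters in these windows only.

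Of the 9 genes 7 differed between the populations: Rnd2, Cdk5, Cdk5r1, Cdk5r2 and Ndel1 were higher in RFP+ neurons (5 genes), and Rnd3 and Flna were higher in GFP+ progenitors (2 genes). Pafah1b1 and Rnd1 missed the threshold. The count of 7 fell to 4 without RFP+ replicate 1 and to 3 without both arrays numbered 1, and leaving out RFP+ replicate 1 or 2, or GFP+ replicate 3, took away both calls higher in GFP+. Calls rest on limma with Benjamini-Hochberg adjustment over all 19938 genes (adjusted p under 0.05). It called 30% of all genes, dim ones included, 16.2% higher in RFP+ and 13.7% higher in GFP+. Intensities were compared as log2(intensity + 16), and every difference below is GFP+ minus RFP+ on that scale with its standard error (SE). The arrays of the groups did not overlap for any of the 9 genes, 6 above in RFP+ and 3 above in GFP+. Over all genes 43.9% did not overlap, 24.1% above in RFP+ and 19.9% above in GFP+. GFP+ and RFP+ arrays of the same replicate number deviated together, and with the number as a block all 9 genes passed, where that fit called 36.9% of all genes. The 3 arrays per group limit the precision, and the p-values measure the spread between these samples, which were not stated to come from separate animals.

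**Figure D1:**
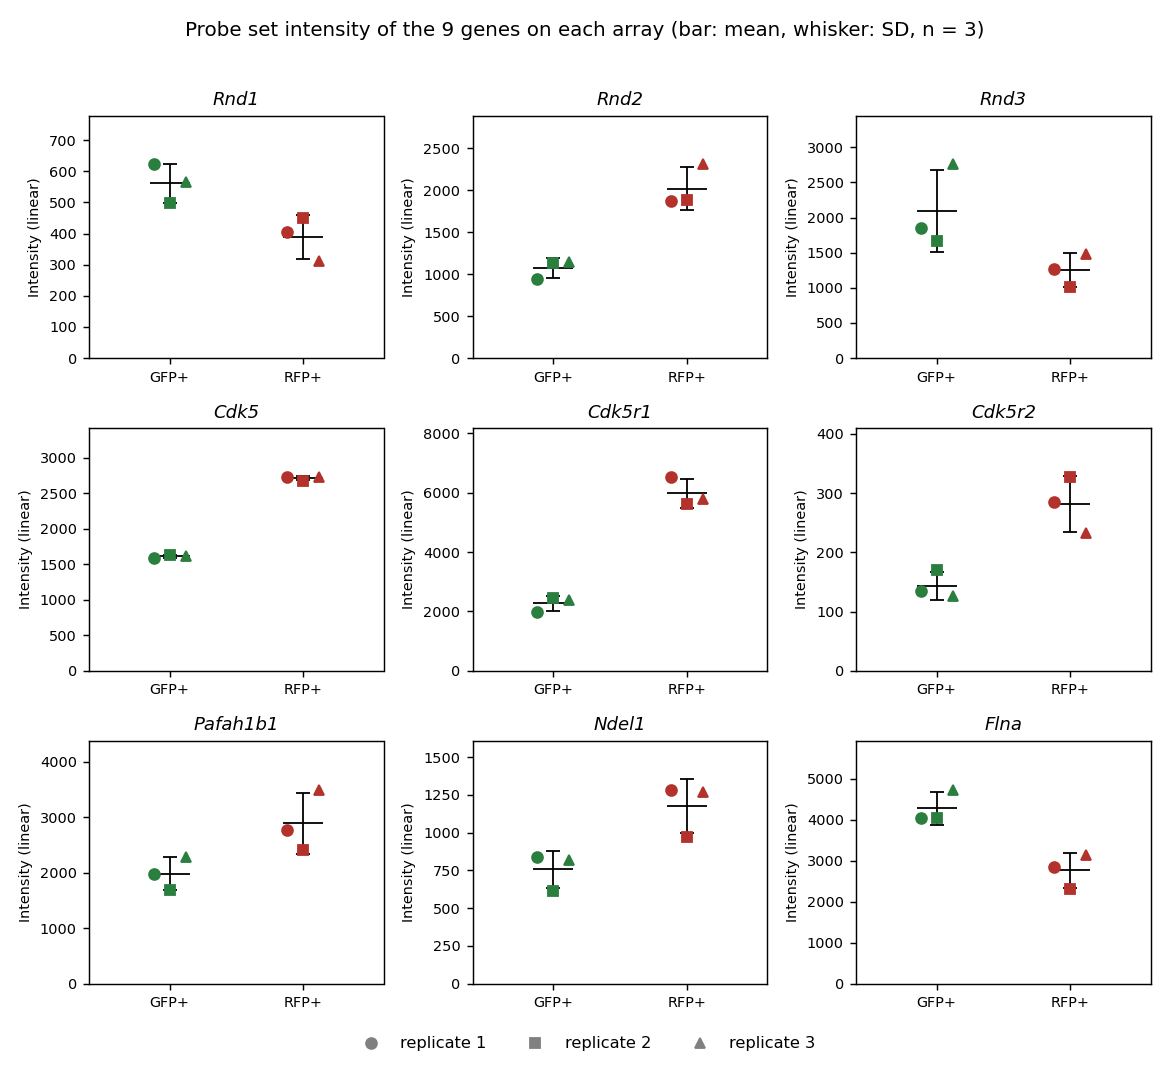
Probe set intensity (linear scale, axis from 0) of the 9 genes on the 3 GFP+ arrays (green) and 3 RFP+ arrays (red), with the symbol giving the replicate number, the bar the mean and the whisker the SD (n = 3). No gene's groups overlap, and the 3 Cdk5 values of each group lie within a narrow band (1590.6 to 1629.78 and 2675.43 to 2729.76).

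The Rnd GTPase genes split by direction. Rnd2, which promotes the exit from the multipolar phase and is a target of the proneural factor Neurog2, read 941.08, 1138.35 and 1149.39 on the GFP+ arrays 1 to 3 and 1867.69, 1880.1 and 2310.77 on the RFP+ arrays. The highest progenitor array lay well below the lowest neuron array. The difference was -0.90 ± 0.20, a 1.86-fold higher level in neurons (limma adjusted p = 0.00199), and it passed without any single array. Rnd3, which restrains RhoA during later migration and also acts in dividing cells, went the other way. Its intensities were 1853.45, 1671.03 and 2761.65 in GFP+ and 1266.82, 1013.89 and 1488.54 in RFP+. GFP+ replicate 3 stood above the other progenitor arrays, and RFP+ replicate 3 was likewise the highest neuron array. Rnd3 was 1.64-fold higher in progenitors (0.71 ± 0.23, limma adjusted p = 0.0234). Its call ended without GFP+ replicate 3 (difference 0.50, limma adjusted p = 0.113), RFP+ replicate 1 (0.73, 0.058) or RFP+ replicate 2 (0.57, 0.117).

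Rnd1, known as a partner of plexin receptors, was the dimmest of the Rnd probe sets in neurons and still above the olfactory receptor guide on every array. It read 623.39, 498.74 and 564.52 in GFP+ and 404.72, 450.26 and 313.09 in RFP+. The lowest progenitor array exceeded the highest neuron array by a small margin, both being numbered 2. The difference of 0.52 ± 0.21 did not pass (limma adjusted p = 0.0663, unadjusted 95% interval 0.08 to 0.96), while it passed with the replicate number as a block (limma adjusted p = 0.0469). Within the numbers it was 0.60, 0.14 and 0.82, the widest spread of the 9 genes relative to its size.

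All 3 genes of the Cdk5 kinase were higher in neurons. Cdk5r1, which encodes the activator p35 and had the largest difference of the 9, read 1988.66, 2441.54 and 2387.31 in GFP+ and 6532.26, 5622.24 and 5773.51 in RFP+. The lowest neuron array was still far above the highest progenitor array. The level was 2.62-fold higher in neurons (-1.39 ± 0.20, limma adjusted p = 1.83e-05), and 2.87% of all genes had a lower (more neuronal) difference. Cdk5, the catalytic subunit, read 1590.6, 1629.78 and 1610.08 in GFP+ and 2726.03, 2675.43 and 2729.76 in RFP+. These were the tightest replicates of the set, with an SD of 19.6 and 30.3 (n = 3 each). Cdk5 was 1.68-fold higher in neurons (-0.75 ± 0.19, limma adjusted p = 0.00596).

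Cdk5r2, which encodes the second activator p39, read 133.85, 169.71 and 126.52 in GFP+ and 285.5, 327.3 and 231.79 in RFP+. None of the 3 progenitor arrays was above the olfactory receptor guide, and all 3 neuron arrays were. The difference was -0.90 ± 0.21 (1.86-fold, limma adjusted p = 0.00261), a size that depends on the offset of 16 because the progenitor values are near background. With offsets of 1 and 64 it was -0.97 and -0.73. The size in Cdk5r1 exceeded that in Cdk5 by 0.65 ± 0.10 on the log2 scale, with no overlap of the arrays (exact two-sided permutation test of the within-array difference, p = 0.1, the smallest that 3 against 3 allows). Cdk5r1 and Cdk5r2 differed by 0.49 ± 0.19 (exact p = 0.2), which does not show that they move alike. That gap depends on the offset too. The difference of Cdk5r1 minus that of Cdk5r2 was -0.43 with an offset of 1 (exact permutation p = 0.2). With an offset of 64 it was -0.64 (exact permutation p = 0.1).

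**Figure D2:**
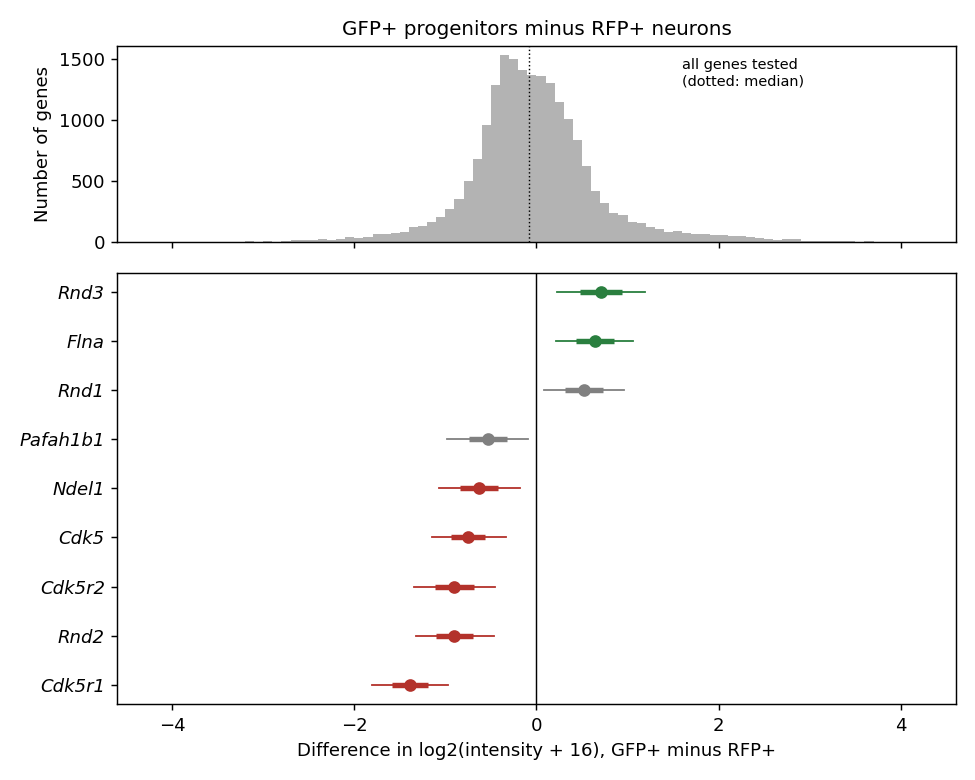
Top, number of genes by difference in log2(intensity + 16), GFP+ minus RFP+, over all 19938 genes (values beyond 4.5 either way are put in the end bins; dotted line, median of -0.08). Bottom, the 9 genes with SE (thick) and unadjusted 95% interval (thin): red, higher in RFP+ neurons; green, higher in GFP+ progenitors; grey, did not pass. Cdk5r1 lies farthest out, at -1.39, and Rnd3 and Flna are on the progenitor side at 0.71 and 0.64.

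Of the dynein regulators, Ndel1 was higher in neurons and Pafah1b1 did not pass. Ndel1, the scaffold that joins Lis1 to dynein, read 838.43, 616 and 817.69 in GFP+ and 1285.21, 971.71 and 1270.63 in RFP+. The array numbered 2 was the lowest in each group, and each neuron array was above every progenitor array. Ndel1 was 1.54-fold higher in neurons (-0.63 ± 0.21, limma adjusted p = 0.0313). Within the replicate numbers the difference was nearly constant, at -0.61, -0.64 and -0.63, and with the block the adjusted p was 0.0112 (limma). Without the block, 3 arrays each decided the call: the difference was -0.49 without GFP+ replicate 2 (limma adjusted p = 0.12) and -0.56 without either RFP+ replicate 1 (0.124) or RFP+ replicate 3 (0.102).

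Pafah1b1, which encodes Lis1, read 1974.23, 1689.14 and 2283.06 in GFP+ and 2761.08, 2408.91 and 3497.44 in RFP+. The order of the numbers was the same in both groups, with 2 lowest and 3 highest, so the spread within a group was large beside a narrow range within the numbers (-0.48, -0.51 and -0.61). The difference of -0.53 ± 0.21 missed the threshold (limma adjusted p = 0.0662, unadjusted 95% interval -0.98 to -0.09). It passed with the replicate block (limma adjusted p = 0.0231), and also without GFP+ replicate 3 (-0.64, limma adjusted p = 0.0425). Pafah1b1 and Ndel1 differed in their change by 0.09 ± 0.13 (exact permutation p = 0.6).

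**Figure D3:**
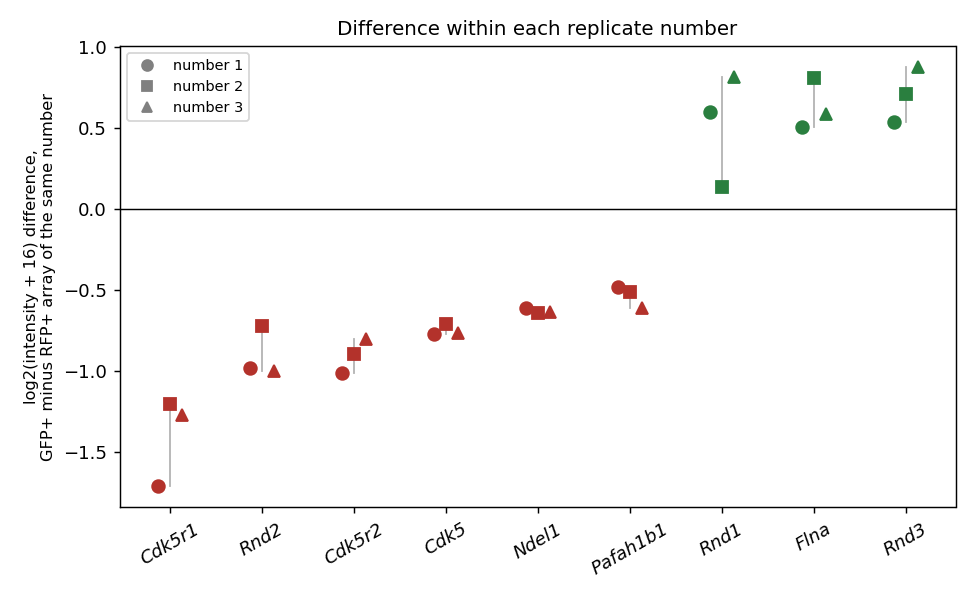
Difference in log2(intensity + 16) between the GFP+ and the RFP+ array of the same replicate number for each of the 9 genes (circle, square and triangle for numbers 1, 2 and 3; grey line, their range). Every difference has the sign of the gene's mean difference; Ndel1 spans -0.64 to -0.61, and Rnd1 spans 0.14 to 0.82.

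Flna, which crosslinks actin and anchors membrane receptors to it, was higher in progenitors. It read 4031.13, 4046.26 and 4730.2 in GFP+ and 2833.73, 2304.99 and 3131.92 in RFP+. The lowest progenitor array was above the highest neuron array, and array 3 was the highest in each group. The level was 1.55-fold higher in progenitors (0.64 ± 0.21, limma adjusted p = 0.0241). The call ended without GFP+ replicate 3 (0.56, limma adjusted p = 0.0681), RFP+ replicate 1 (0.66, 0.0614) or RFP+ replicate 2 (0.51, 0.128).

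Filamin A is also abundant in vessel cells, and vessel markers moved the same way as Flna and Rnd3. Of 11 endothelial markers 10 were higher in GFP+, with summed intensities of 2240 to 7110 against 829 to 1054 in RFP+. Of 12 pericyte and mural markers 9 were higher in GFP+ (6342 to 7898 against 1385 to 1548), and of 10 meningeal fibroblast markers 5 were (1571 to 1726 against 828 to 926). No marker was at 0 on any array, but many were near background. On all RFP+ arrays 10 endothelial, 11 mural and 9 meningeal markers were under the olfactory receptor guide. On all GFP+ arrays 1 endothelial, 3 mural and 6 meningeal markers were. The RFP+ values thus lie mostly near background, and so do most meningeal values in GFP+. GFP+ replicate 1 had the lowest endothelial sum of the progenitors, 2240, and a mural sum of 7749, near the top of their range. The part of vessel cells in the differences of Flna and Rnd3 was not tested. Of 11 microglia markers 0 passed in limma, 0 had an unadjusted p under 0.05 and 0 passed with the replicate block. Of 4 erythroid markers 0 passed in limma, 1 had an unadjusted p under 0.05 and 1 passed with the block. Of 10 interneuron lineage markers 2 were higher in GFP+. Their summed intensities were 12520 to 15691 in GFP+ and 6718 to 15848 in RFP+, with the wider range among the RFP+ arrays. The part of such cells in the differences of the 9 genes was not tested.

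Of the 8 pairs of related genes compared, 4 had within-array differences that did not overlap between the groups. How often other gene pairs do so was not counted, so this number is a description only. For Rnd2 against Rnd3 the gap was 1.61 ± 0.23 on the log2 scale, and for Rnd1 against Rnd2 it was 1.42 ± 0.30 (exact permutation p = 0.1 each, 0.2 after Benjamini-Hochberg adjustment over the pairs). Rnd1 and Rnd3 differed by 0.19 ± 0.37 (exact p = 0.6). The widest gap was between Ndel1 and its paralog Nde1, a gene of dividing neural progenitors, at 3.21 ± 0.30 (exact p = 0.1). Nde1 read 2162.46, 2340.34 and 1945.24 in GFP+ and 295.63, 377.18 and 361.87 in RFP+, so that paralogs with a shared role on Lis1 and dynein lay on opposite sides. Nde1 was 6.01-fold higher in progenitors (2.59 ± 0.20, limma adjusted p = 9.99e-09). With 3 arrays against 3 no pair can reach 0.05 in this test.

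The factors and partners of the Rnd proteins were divided as well. Of 19 measured genes 5 were higher in GFP+, 4 were higher in RFP+ and 10 did not pass, with a median difference of -0.20 beside -0.08 over all genes. Neurog2, the factor that switches on Rnd2, was 4.34-fold higher in progenitors (2.12 ± 0.21, limma adjusted p = 1.32e-07), at 7386.02, 7282.26 and 7870.73 in GFP+ and 2112.88, 1586.91 and 1508.61 in RFP+. Rnd2 thus lay on the neuronal side and its inducer on the progenitor side of these arrays. Zbtb18, a repressor that acts on Neurog2 and Rnd2, was 2.08-fold higher in neurons (-1.06 ± 0.20, limma adjusted p = 3.69e-04). Prag1, a pseudokinase gene whose product binds Rnd2, was 4.24-fold higher in progenitors, and Arhgap5, a p190 RhoGAP gene, 2.14-fold higher there. The plexin gene Plxnd1 and the cofilin kinase gene Limk1 were 2.01-fold and 1.70-fold higher in neurons. The Plxnd1 arrays of the groups overlapped, and its call ended without GFP+ replicate 1 or RFP+ replicate 1 (limma adjusted p up to 0.0844).

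Other small GTPase genes related to RhoA passed in both directions. Of 18 measured, 4 were higher in GFP+, 6 in RFP+ and 8 did not pass (median -0.22). Rhoq, which takes part in vesicle traffic, was 3.09-fold higher in progenitors, and Rac3, a Rac gene of neurons, 2.99-fold higher in neurons. Rhoj, a GTPase known from endothelial cells, and Rhoc were also higher in progenitors. Rhoj read 270.54, 450.28 and 500.33 in GFP+ and 26.47, 34.88 and 31.55 in RFP+. Rhoc read 900.56, 652.95 and 585.02 in GFP+ and 97.16, 114.64 and 67.82 in RFP+. Neither was above the olfactory receptor guide on any RFP+ array, so the size of their change depends on the offset of 16. The endothelial sums given above were also higher in GFP+. GFP+ replicate 1, with the lowest endothelial sum of the progenitors (2240), had the lowest Rhoj and the highest Rhoc of the GFP+ arrays. The part of vessel cells in these differences was not tested. Rhof and Rhov were higher in neurons, with Rhof under the guide on every GFP+ array and Rhov under it on every array of both groups. RhoA itself, the GTPase that Rnd proteins oppose, did not pass (0.46 ± 0.20, limma adjusted p = 0.0868), while it did with the replicate block (limma adjusted p = 0.0409).

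Regulators and substrates of Cdk5 that passed were higher in neurons, except Capn2. Of 20 measured genes 9 were higher in RFP+, 1 was higher in GFP+ and 10 did not pass, with a median of -0.52. The list holds microtubule and adaptor genes of neurons, and some of its members also mark neurons in general. Mapt, which encodes tau, was 2.93-fold higher in neurons, and the Reelin adaptor gene Dab1 2.74-fold. Cables1, whose product links Cdk5 to other kinases, was higher in neurons and not above the olfactory receptor guide on any GFP+ array. Capn2, a subunit of the calpain protease that cleaves p35 to p25, was 1.59-fold higher in progenitors (0.67 ± 0.20, limma adjusted p = 0.0137), a call that ended without RFP+ replicate 2 (limma adjusted p = 0.0544). Ptk2 and Pak1 are not analysed here.

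Partners of Lis1 and Ndel1 differed widely in size. Of 22 measured genes 7 were higher in RFP+, 2 were higher in GFP+ and 13 did not pass (median -0.26). The dynein intermediate chain gene Dync1i1 differed by -3.32 ± 0.25 (limma adjusted p = 5.56e-09), at 127.78, 276.09 and 175.32 in GFP+ and 1617.24, 2041.89 and 2377.26 in RFP+, and only 1 of the 3 GFP+ arrays was above the olfactory receptor guide, so that size too depends on the offset. Dync1h1, the heavy chain gene on which the motor is built, did not pass (-0.07 ± 0.22, limma adjusted p = 0.837). Dclk1, a doublecortin relative, was 3.30-fold higher in neurons and Pafah1b3, which encodes a catalytic partner of Lis1 in the acetylhydrolase complex, 1.69-fold. Besides Nde1, the light chain gene Dynlt3 was higher in progenitors (1.58-fold), a call lost without GFP+ replicate 1 and also without RFP+ replicate 2 or 3 (limma adjusted p up to 0.0775). The count of 9 genes in this list fell to 5 without GFP+ replicate 2 or RFP+ replicate 1 and to 4 without RFP+ replicate 3.

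Filamin relatives and partners that passed were higher in progenitors with 1 exception. Of 18 measured genes 7 were higher in GFP+, 1 was higher in RFP+ and 10 did not pass, with a median of 0.51. Flnc, the muscle filamin gene, was higher in progenitors, where it read 282.62, 322 and 351.25 against 91.27, 44.32 and 68.53 in RFP+. The RFP+ values were all under the olfactory receptor guide, so the size of the change depends on the offset. Vim, the intermediate filament gene of radial glia whose product binds filamin A, was 3.66-fold higher and the actin crosslinker gene Actn1 2.49-fold higher. Fblim1, which encodes a filamin-binding adaptor, was higher in neurons but under the guide on all 6 arrays. The same limit holds for Fhod1, counted among the 7 genes higher in progenitors and also under the guide on all 6 arrays. The endothelial and mural sums were also higher in GFP+, and the part of vessel cells in this list was not tested.

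**Figure D4:**
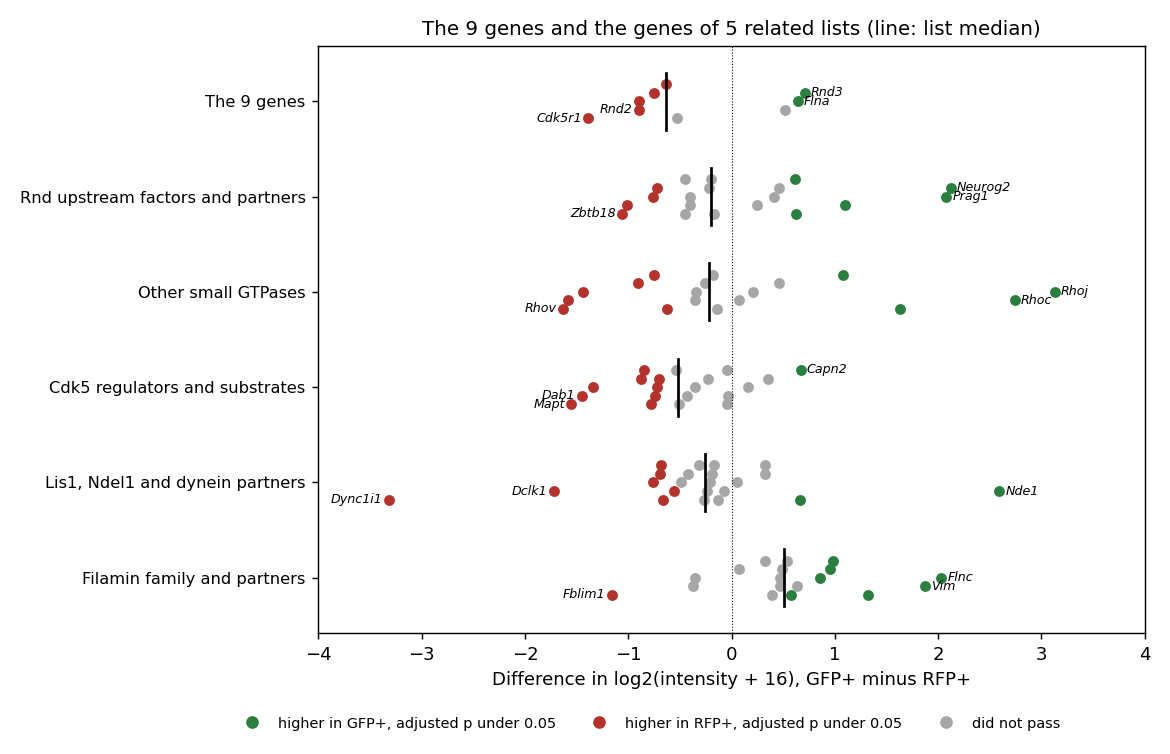
Difference in log2(intensity + 16), GFP+ minus RFP+, of the 9 genes and of the measured genes of 5 related lists (points, spread vertically for legibility; black line, list median). Green and red points passed limma's adjusted p of 0.05, grey points did not; sizes such as those of Dync1i1 (-3.32) and Rhoj (3.13), with a group near background, depend on the offset of 16, and the list medians run from -0.63 for the 9 genes to 0.51 for the filamin list.

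Over the 5 lists 46 of 96 measured genes passed, 19 higher in GFP+ and 27 higher in RFP+, beside 30% of all genes. That share includes dim genes, whereas 6 of the 96 were under the olfactory receptor guide on all arrays. Without the dimmest 50% of the 19938 genes, 42 list genes and 4512 genes in all passed. The share among genes as bright as the lists was not counted. The 46 of 96 beside 30% therefore does not show that list genes passed more often than other genes of their brightness. Of the 46 genes that passed, none changed sign in any alternative processing run, and 32 passed without any single array. Runs such as the block and the size threshold keep the difference itself, so no sign could change there.

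As a description, the genes whose log2 values followed each member most closely over the 6 arrays were Morn4, Rmdn3 and Fbxl2 for Rnd2, Cnpy4, Arap2 and Rtl5 for Rnd3, and Olfr535, Dpep3 and Snord104 for Rnd1. For Cdk5 they were Runx1t1, Rundc3a and Pfkfb3, for Cdk5r1 Psd, Npr2 and Rbfox2, and for Cdk5r2 Abhd12, Cnrip1 and Cryab. For Pafah1b1 they were Fxr2, Cluap1 and Stpg1, for Ndel1 Metap1, Nmt2 and Eif4a1, and for Flna Rtel1, Xrcc6 and Adk. Pearson's r was 0.988 or higher in each case, and the arrays share the 2 groups. An r over 0.95 was reached by 1417 genes for Cdk5 and by 74 for Rnd1.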

How the data were processed

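The deposited values were probe set intensities on a linear scale, which the authors made with Affymetrix Expression Console per the submitters' processing notes. Its version, background correction and normalization are not given in the sources used here, and no genome build was used for the intensities. The platform annotation gave 21789 of 35557 probe sets a single symbol, 1621 several and 12147 none. Genes with several probe sets were represented by the one with the highest mean log2 value, giving 19938 genes, none of them filtered out.

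Values were taken as log2(intensity + 16) and fitted with limma 3.58.1 in R 4.3.3 by lmFit and eBayes, as GFP+ minus RFP+ with two-sided tests. The moderated variance had 15.5 prior degrees of freedom. Tables and figures used Python 3.11.15, and the fit was tested on simulated data. Related genes were compared by an exact permutation test over arrays. The members, the 5 gene lists (105 genes, 96 measured) and the marker lists were chosen with earlier results of these data known. Named list genes are up to 3 per direction with the largest difference past the threshold, plus Neurog2 and Nde1; some other items are not reported here. RhoA, Dync1h1, Fhod1 and genes named as not analysed were added after their values were seen or looked for.

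Sample titles carry replicate numbers. Deviations from the group means were correlated across genes. The correlation was 0.204, 0.288 and 0.361 for arrays of the same number and -0.267 to 0.00422 for others. Because deviations within a group sum to 0, these values are not independent. The numbers may pair the samples, but the titles do not state a pairing. The main fit has no block. Alternatives were the block, the number as a random effect, other offsets, quantile normalization, median centring, filters on dim genes, the mean of probe sets or all of them, an intensity trend, array weights, a size threshold and leaving out arrays.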

Additional observations from a re-analysis of the deposited data

How the results depend on the processing

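Over 20 alternatives no member changed direction, and of 179 values 147 kept their side of the threshold. Some of these alternatives keep each member's difference as it is, so only the threshold could be tested there. They are the block, the random effect, the intensity trend, the size threshold, the dim filters and both probe set settings. Rnd2 and Cdk5r1 passed in all 20 and Cdk5r2 in the 19 that kept it, since the filter on the dimmest 50% removed it. Pafah1b1 and Rnd1 passed with the replicate block, the number as a random effect, the intensity trend and without the dimmest 30% or 50% (-0.53 and 0.52 throughout), and with an offset of 64 (-0.52 and 0.47). The block ended no call of a member. With an offset of 1, Rnd3 (0.72) and Ndel1 (-0.64) were lost, which left 1 member higher in GFP+. Against a 1.2-fold size (limma treat) 3 members passed, 3 higher in RFP+ and 0 in GFP+ (Rnd3 0.71, Cdk5 -0.75, Ndel1 -0.63 and Flna 0.64 were lost), with 29 list genes and 3535 genes in all. Without both arrays numbered 1, chosen after seeing the data and leaving 2 arrays per group, 3 members passed, again 3 and 0 (Rnd3 0.80, Cdk5 -0.73, Ndel1 -0.64 and Flna 0.70 were lost), with 29 list genes and 3848 genes in all. Leaving out 1 array at a time, 4 to 7 members passed, 4 to 6 higher in RFP+ and 0 to 2 in GFP+. The differences ran from 0.50 to 0.86 for Rnd3, -0.76 to -0.49 for Ndel1, 0.51 to 0.73 for Flna and -0.66 to -0.39 for Pafah1b1. The number of arrays, and for Cdk5r2 the nearness to background, limit these values.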
